A study of Mus musculus with 14 samples.

Results

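The Polycomb genes described here were 10 listed genes: 5 of Polycomb repressive complex 2 (PRC2; Ezh1, Ezh2, Eed, Suz12 and Jarid2), 3 of Polycomb repressive complex 1 (PRC1; Bmi1, Ring1 and Rnf2) and 2 Asxl genes (Asxl1 and Asxl2). They were chosen by name, not by any measured value, though with earlier results of these data known. They are 10 of 27025 genes with an annotated start in RefSeq GRCm38.p6, 17492 of which are protein-coding. H3K4me3, the histone mark found at active and poised gene starts, was profiled by CUT&Tag, in which an antibody-tethered transposase cuts and tags DNA beside the marked nucleosomes. The cells were LSK cells (lineage-negative, Sca1-positive, cKit-positive), the bone marrow fraction that holds blood stem and progenitor cells, with 10000 cells per assay. They came from male C57BL/6J mice bought at 3 to 4 weeks of age and kept for 16 to 20 weeks on a diet in which fat supplied 60% (high-fat, HFD) or 10% (low-fat, LFD) of the calories. There were 3 HFD-LSK and 4 LFD-LSK peak lists. The 7 IgG libraries of the series were not analysed here, and the labels do not say whether peak calling used them. The labels call the libraries replicates without tying each to separate animals, so p-values measure the spread between these libraries.

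Polycomb proteins keep developmental genes silent. PRC2 places methyl groups on lysine 27 of histone H3 through its catalytic subunit Ezh2 or Ezh1, with Eed and Suz12 as core partners and Jarid2 as an accessory subunit, and PRC1 attaches ubiquitin to histone H2A through the RING proteins Ring1 and Rnf2 together with a partner such as Bmi1. Asxl1 and Asxl2 are partners of the deubiquitinase Bap1, which removes that ubiquitin. Bmi1 is required for self-renewal of blood stem cells, and Ezh2 and Asxl1 are recurrently mutated in myeloid malignancies. The values below concern H3K4me3 at the starts of the genes that encode these proteins, not the proteins or the marks they make.

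The HFD-LSK lists held 9186, 13094 and 11977 peaks and the LFD-LSK lists 7447, 10572, 10352 and 6921. A gene was called in a list when a peak overlapped the 1 kb on either side of its start. For each call, the rank position is the rank of the strongest such peak by fold enrichment, as a percentage of its list (small values are near the top), and the width is the number of bp covered by the peaks at the start, summed over starts where a gene has several. Of the LSK markers, 6 of the 9 with a start (Kit, Cd34, Gata2, Meis1, Mecom and Tal1) were called in all 7 lists, Runx1 and Flt3 in 6 each (not in 1 LFD-LSK list) and Hlf in 3 HFD-LSK and 2 LFD-LSK lists. The mature blood markers Cd3e, Ly6g and Itgam and the liver marker Alb were called in none.

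HFD-LSK replicate 3 stood apart from the other 6 lists. Across the 4437 gene starts called in all 7 lists, its rank positions had a mean Spearman correlation of 0.0773 with the other lists, against 0.305 to 0.436 for each of the others (a description across genes, which are not independent replicates), while its widths had a mean correlation of 0.561. In width LFD-LSK replicate 4, the shortest list, stood apart instead, with a mean correlation of 0.374 against 0.560 to 0.649 for each of the others. The peak caller's fold and p-value together give the summit height and the local background set against it. In HFD-LSK replicate 3 the median local background was 9.45 times the lowest of that list, and in the other 6 lists it was 1.00 to 1.41 times. Values without this library are given below for the genes called in every list, and ranks by summit height follow those by fold.

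Of the 10 Polycomb genes, 7 were called in all 7 lists, and 22.4% of protein-coding genes with a start were. The 7 were Ezh2, Eed, Jarid2, Bmi1, Rnf2, Asxl1 and Asxl2. Suz12 and Ring1 were each called in 6 lists and lacked a peak in LFD-LSK replicate 4, the shortest list. Ezh1 had a peak in 3 lists, of which 2 were HFD-LSK (of 3) and 1 was LFD-LSK (of 4), a difference that did not pass the two-sided Fisher's exact test (p = 0.486). With every list held to as many peaks as the shortest, 2 of the 10 genes (Jarid2 and Rnf2) were called in all 7, beside 10.3% of protein-coding genes. With peaks of −log10 q of at least 5, 4 were (Ezh2, Eed, Jarid2 and Bmi1), beside 13.2%.

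Within PRC2, the catalytic pair differed most in calls. Ezh2, the main methyltransferase of dividing cells, had rank positions of 15.8, 25.6 and 75.7% in HFD-LSK and 26.3, 15.4, 9.15 and 20.7% in LFD-LSK. Its farthest value was that of HFD-LSK replicate 3, and the remaining lists of the diets overlapped. The means were 39.0 ± 32.1% (SD, n = 3) and 17.9 ± 7.33% (SD, n = 4), a difference of 21.1 percentage points that did not pass the two-sided exact permutation test over libraries (p = 0.2). Without HFD-LSK replicate 3 the difference at Ezh2 was 2.78 percentage points. Ezh1, the methyltransferase that persists in resting cells, lay at 88.8% in HFD-LSK replicate 1, 48.7% in HFD-LSK replicate 2 and 67.9% in LFD-LSK replicate 2, with widths of 329, 1144 and 684 bp. Ezh2 ranked nearer the top and was wider than Ezh1 in 7 of 7 lists, with lists lacking an Ezh1 peak counted as such.

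The H3K27me3-binding subunit Eed lay at 8.13, 5.69 and 64.1% in HFD-LSK and at 11.3, 3.87, 6.24 and 34.5% in LFD-LSK. Again 1 HFD-LSK library was far from the rest, and the groups overlapped (two-sided exact permutation p = 0.6). On average Eed lay farther from the top in HFD-LSK, and without HFD-LSK replicate 3 the difference turned to −7.07 percentage points. Suz12, the scaffold of the complex, lay at 10.9, 4.64 and 56.4% in HFD-LSK and at 54.7, 24.4 and 31.3% in the 3 LFD-LSK lists that held it. The farthest value was again that of HFD-LSK replicate 3, and the other HFD-LSK values lay nearer the top than those of LFD-LSK, a contrast seen with the values in view and not tested. By fold Jarid2 had the narrowest range of rank positions of the genes called in every list. Its rank positions were 8.64, 1.44 and 14.4% in HFD-LSK and 2.22, 2.20, 9.15 and 19.4% in LFD-LSK, and it was the gene nearest the top by mean rank position (8.21%). The diets overlapped throughout this range (8.15 ± 6.48%, n = 3, and 8.25 ± 8.14%, n = 4; two-sided exact permutation p = 1), and the difference of −0.102 percentage points lay between −3.21 and 3.63 when single libraries were left out and was −11.3 with ranks by −log10 p.

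Jarid2 has 2 annotated starts, at positions 44730774 and 44731271 of chromosome 13. A further peak with its summit 3015 to 3280 bp into the gene was present in 6 lists apart from the peak at the starts. In HFD-LSK replicate 2 a downstream peak reached the 1 kb around the second start, which raised the Jarid2 width of that library to 4434 bp, of which the strongest peak held 2259 bp.

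Among the PRC1 genes, Bmi1 lay at 17.5, 9.97 and 64.1% in HFD-LSK and at 47.3, 10.5, 25.2 and 28.4% in LFD-LSK. The HFD-LSK values spanned those of LFD-LSK (two-sided exact permutation p = 0.829), and the difference of 2.69 percentage points became −14.1 without HFD-LSK replicate 3 and −3.08 without LFD-LSK replicate 2. Ring1, a catalytic RING protein of the complex, lay at 52.3, 12.9 and 45.6% in HFD-LSK and at 24.8, 34.0 and 16.2% in the 3 LFD-LSK lists that held it. Its paralog Rnf2 lay at 7.97, 2.38 and 3.31% in HFD-LSK and at 71.5, 36.3, 8.72 and 3.45% in LFD-LSK. The HFD-LSK values of Rnf2 were all near the top, whereas the LFD-LSK values ran from the top of the list to its lower part. The means were 4.55 ± 2.99% (n = 3) and 30.0 ± 31.2% (n = 4), and the difference of −25.4 percentage points did not pass the two-sided exact permutation test (p = 0.2). It was −11.6 without LFD-LSK replicate 1 and −24.8 without HFD-LSK replicate 3.

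Asxl1 was the farthest from the top of the 7 genes called in every list (mean rank position 50.8%), with 59.3, 22.8 and 64.4% in HFD-LSK and 42.3, 16.7, 93.7 and 56.5% in LFD-LSK. Its libraries were as spread within a diet as between diets (two-sided exact permutation p = 0.943), and the difference of −3.44 percentage points was −11.2 without HFD-LSK replicate 3, 9.56 without HFD-LSK replicate 2 and 10.4 without LFD-LSK replicate 3. Asxl2 lay at 5.14, 3.05 and 96.7% in HFD-LSK and at 9.87, 7.79, 21.8 and 67.0% in LFD-LSK. Thus 2 HFD-LSK libraries placed Asxl2 closer to the top than any LFD-LSK library, and HFD-LSK replicate 3 placed it farther down than any other (two-sided exact permutation p = 0.743). The Asxl2 difference of 8.35 percentage points became −22.5 without that library.

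Of the 7 genes called in every list, 0 had rank positions that did not overlap between diets. Over all 4437 gene starts, 3.34% were separated with HFD-LSK nearer the top and 1.6% with HFD-LSK farther. The smallest p this design allows is 0.0286, and after Benjamini-Hochberg adjustment over all gene starts 0 passed 0.05 by the exact permutation test (lowest adjusted p = 0.963), with 105 under 0.05 before adjustment. The median difference (HFD-LSK minus LFD-LSK) was 2.69 percentage points over the 7 Polycomb genes and −1.89 over all gene starts. Without LFD-LSK replicate 2 these medians were −2.12 and −2.84. Without HFD-LSK replicate 3 they were −11.2 and −6.44 percentage points, and Asxl2 alone did not overlap, nearer the top in HFD-LSK, beside 9.9% of 4614 gene starts in that direction and 3.12% in the other.

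**Figure D1:**
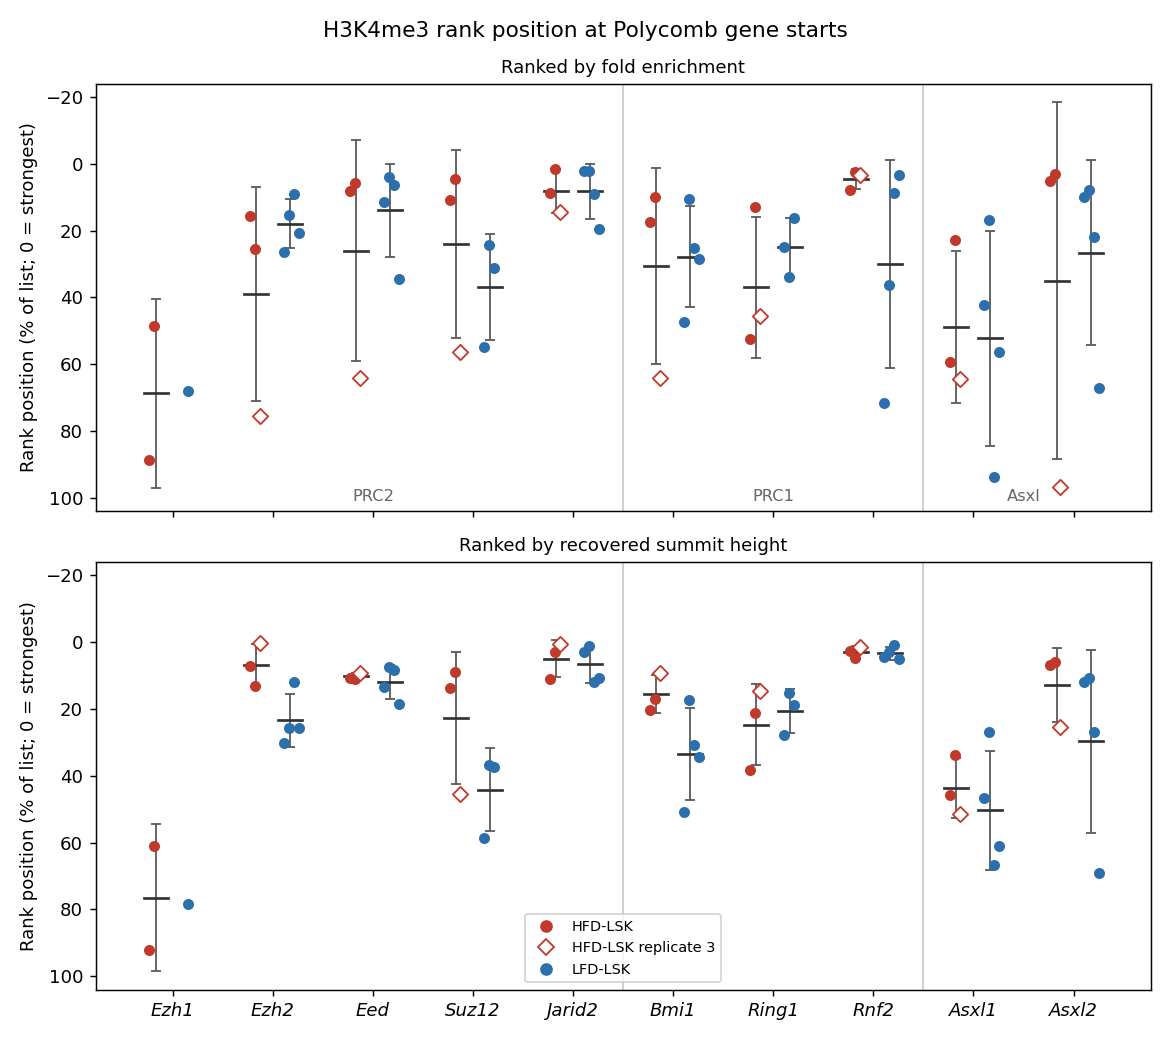
Rank position of the strongest peak at each Polycomb gene start, as a percentage of its list with the strongest peaks at the top, by fold enrichment (upper) and by recovered summit height (lower). Points are libraries (open diamonds, HFD-LSK replicate 3), and bars show the mean and SD of the called libraries. By fold, Asxl2 falls to 96.7% in HFD-LSK replicate 3, and by height it lies at 25.5% there.

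The local background differed between the Polycomb peaks. In HFD-LSK replicate 3 it was 56.7 times the lowest of the list at Ezh2, 37.8 times at Asxl2, 28.4 times at Eed and at Bmi1, 19.6 times at Jarid2, 18.9 times at Ring1, 12.3 times at Suz12 and at Asxl1, and 9.80 times at Rnf2, with a median of 19.6 times over the 9 genes called there. By rank in that list, Asxl2 (96.7%) and Ezh2 (75.7%) were the farthest of the 9 from the top and Rnf2 (3.31%) the nearest, with Asxl1 at 64.4%, Suz12 at 56.4% and Jarid2 at 14.4%. In the other lists the median was 1.00 to 1.21 times. At Rnf2 in LFD-LSK the local background was 48.9, 21.0, 10.6 and 1.00 times the lowest in replicates 1 to 4, beside rank positions of 71.5, 36.3, 8.72 and 3.45%. The part of the background in these ranks was not tested, and ranks by height follow.

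Summit height is not divided by the local background, so a peak on a high background can rank near the top. By height Rnf2 lay at 2.71, 4.80 and 1.32% in HFD-LSK and at 4.53, 2.80, 0.710 and 5.02% in LFD-LSK. Every library thus placed Rnf2 close to the top, nearer by mean and with smaller SDs (1.75 and 1.95) than Jarid2 (5.48 and 5.42), and the LFD-LSK spread seen by fold was not present. Ezh2 moved to 7.01, 13.1 and 0.267% in HFD-LSK and to 30.2, 25.7, 11.8 and 25.6% in LFD-LSK. The direction at Ezh2 was therefore opposite to that by fold, with HFD-LSK nearer the top by 16.5 percentage points on average (6.79 ± 6.41%, n = 3, and 23.3 ± 7.97%, n = 4; two-sided exact permutation p = 0.0857). Bmi1 also lay nearer the top in HFD-LSK by height (15.5 ± 5.81%, n = 3, and 33.3 ± 13.8%, n = 4; two-sided exact permutation p = 0.0857), where by fold it did not. Neither difference passed, and the adjusted p over all gene starts was 0.931 for each. The others were closer, with 10.2 and 11.9% at Eed, 4.91 and 6.63% at Jarid2 and 43.6 and 50.2% at Asxl1 in the means of HFD-LSK and LFD-LSK, or spread within diets, as at Asxl2 (12.8 ± 11.0%, n = 3, and 29.7 ± 27.3%, n = 4; two-sided exact permutation p = 0.4). Of the genes not called in every list, Suz12 lay by height at 13.7% in HFD-LSK replicate 1, nearer the top in replicate 2 and at 45.4% in replicate 3, and at 58.5, 36.7 and 37.3% in LFD-LSK, Ring1 at 38.2, 21.1 and 14.7% and at 27.9, 15.1 and 18.8%, and Ezh1 at 92.0 and 60.9% and at 78.5%. By height 0 of the 7 genes were separated between diets, beside 6.11% of gene starts with HFD-LSK nearer the top and 0.473% farther.

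Between complexes, the rank positions did not separate consistently. With an uncalled gene set at 100%, the median PRC2 gene lay at 10.9, 5.69 and 64.1% in HFD-LSK and at 26.3, 15.4, 9.15 and 34.5% in LFD-LSK. The median PRC1 gene lay at 17.5, 9.97 and 45.6% and at 47.3, 34.0, 16.2 and 28.4%, farther from the top than PRC2 in 5 of 7 lists. The Asxl median lay at 32.2, 12.9 and 80.5% and at 26.1, 12.3, 57.7 and 61.8%, also farther than PRC2 in 5 of 7 lists. The mean difference from PRC2 was 4.70 ± 13.7 percentage points for PRC1 and 16.8 ± 17.9 for Asxl (SD over 7 lists), each smaller than its SD. With the mean over genes in place of the median these became −6.58 and 4.29. Without HFD-LSK replicate 3 the PRC1 difference was 8.57, and without LFD-LSK replicate 1 it was 1.99. By height the differences were 2.61 ± 7.29 for PRC1 (farther than PRC2 in 4 of 7 lists) and 17.1 ± 18.0 for Asxl (in 5 of 7). No p is given, since genes are not replicates.

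The Asxl median joined unlike genes. By fold, Asxl2 ranked nearer the top than Asxl1 in 5 of 7 lists and by height in 6 of 7. Within PRC1, Rnf2 ranked nearer the top than Ring1 in 5 of 7 lists by fold and in 7 of 7 by height. In rank position, differences inside a complex were thus at least as regular as those between complexes.

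Widths gave a more regular contrast, with an uncalled gene set at 0 bp. The median PRC2 width was 1408, 2083 and 1396 bp in HFD-LSK and 1480, 1740, 1399 and 923 bp in LFD-LSK, and the median PRC1 width was 1118, 1779 and 1177 bp and 1095, 1142, 1176 and 722 bp. PRC1 was narrower in 7 of 7 lists, by a mean of 317 ± 139 bp (SD over 7 lists). This order rested on Rnf2, with a median width of 1095 bp, and Ring1, with 1136 bp over the 6 lists that held it, since Bmi1, at 1847 bp, was the widest of the 10 genes by median. It also depended on the window, since with 3 kb around the start PRC1 was wider by 70.6 bp on average, and with the mean over genes the difference was −60.8 bp. The Asxl median was wider than that of PRC2 in 4 lists and narrower in 3. The mean over lists of the median width was 1490 bp for PRC2, 1173 bp for PRC1 and 1467 bp for Asxl. It was 1128 bp for coding genes called in all 7 lists and 785 bp for coding genes called in any list.

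**Figure D2:**
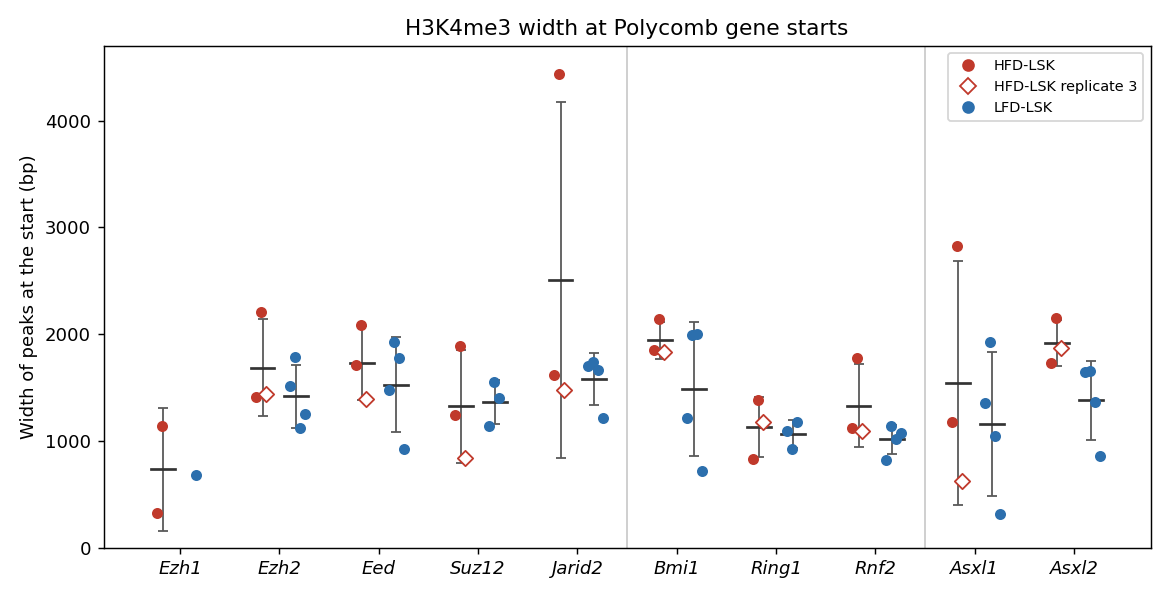
Width in bp of the peaks at each Polycomb gene start in each library, with the mean and SD of the called libraries (open diamonds, HFD-LSK replicate 3). At Asxl2 the 3 HFD-LSK libraries (1728 to 2154 bp) lie above the 4 LFD-LSK libraries (854 to 1652 bp).

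Between diets, Asxl2 was the 1 Polycomb gene of 7 whose widths did not overlap. It covered 1728, 2154 and 1871 bp in HFD-LSK and 1642, 1652, 1367 and 854 bp in LFD-LSK. The narrowest HFD-LSK library exceeded the widest LFD-LSK library by a small margin, and the mean difference of 539 bp (1918 ± 217 bp, n = 3, and 1379 ± 374 bp, n = 4) did not pass the two-sided exact permutation test (p = 0.0857, adjusted p = 0.704 over all gene starts). HFD-LSK peaks were wider at most gene starts: 6.58% of the 4437 were separated with HFD-LSK wider and 0.0% with HFD-LSK narrower, 93.3% were wider on average, and the median difference was 288 bp. Without HFD-LSK replicate 2, the longest list, the median was 99.0 bp, with 6.65% separated wider and 1.4% narrower. It was 190 bp without LFD-LSK replicate 4 and 394 bp without HFD-LSK replicate 3. The count of 1 in 7 is therefore read against a general difference in width, the size of which depended on the libraries included. Taken as a position within its own list's widths, Asxl2 overlapped between diets, and 2.97% of gene starts were separated with HFD-LSK wider and 1.69% with HFD-LSK narrower.

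The other 6 genes overlapped in width. Rnf2 covered 1118, 1779 and 1095 bp in HFD-LSK and 822, 1142, 1017 and 1073 bp in LFD-LSK (two-sided exact permutation p = 0.114). Its HFD-LSK range met that of LFD-LSK only through LFD-LSK replicate 2. The mean differences were 269 bp at Ezh2, 202 bp at Eed, 458 bp at Bmi1, 383 bp at Asxl1 and 929 bp at Jarid2, all wider in HFD-LSK. The Jarid2 value rested on HFD-LSK replicate 2, without which the difference was −33.2 bp, and that at Asxl1 likewise became −258 bp. With the strongest peak alone the Jarid2 difference was 204 bp. Without the same library the differences were 8 bp at Ezh2, 24.5 bp at Eed and 93 bp at Rnf2 (317 bp with it). Without LFD-LSK replicate 4 they were 0 bp at Eed, 204 bp at Bmi1, 99.7 bp at Asxl1 and 364 bp at Asxl2. There Asxl2 still did not overlap, beside 6.89% of gene starts separated with HFD-LSK wider. By the exact permutation test 0 of 4437 gene starts passed after adjustment (163 under 0.05 before it).

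The peaks differed in where they sat. Ring1 summits lay within −5 to 39 bp of its start and Asxl2 summits within −3 to 261 bp, whereas Asxl1 summits ranged from 39 to 705 bp into the gene. In HFD-LSK replicate 3 and LFD-LSK replicates 3 and 4 the Asxl1 peak began 457, 158 and 507 bp downstream of the start and did not cover it. In HFD-LSK replicate 1 the strongest of 2 Asxl1 peaks, with its summit at 705 bp, began 542 bp downstream, and the other covered the start. The Ezh2 peak (chr6:47593771-47595979 across the lists) also held the start of the noncoding gene F830010H11Rik 179 bp away on the opposite strand, and the Asxl2 peak (chr12:3425712-3427865) held that of 1110002L01Rik 110 bp away on the opposite strand, so the signal at these starts cannot be assigned to 1 gene of each pair.

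**Figure D3:**
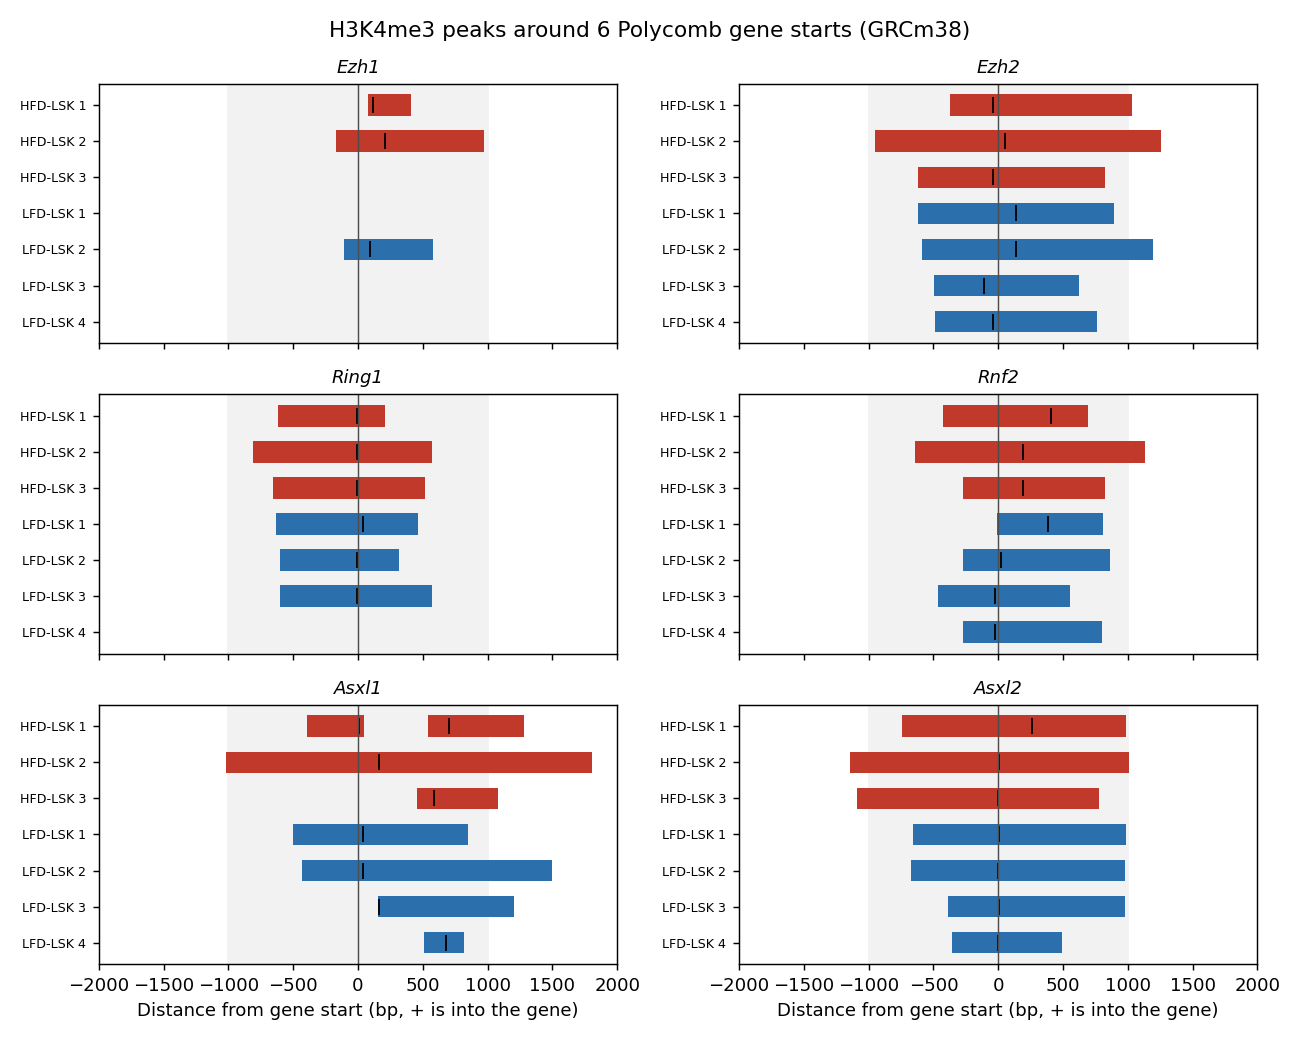
Peaks at the starts of 6 Polycomb genes in the 7 lists (red, HFD-LSK; blue, LFD-LSK), in bp from the gene start with positive values into the gene; ticks mark summits and grey the 1 kb on either side. Ezh1 has a peak in 3 lists and Ring1 in 6, and the Asxl1 peaks shift into the gene in some lists.

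The promoters of the 10 genes (11 starts, each 250 bp before to 50 bp after the start, RefSeq GRCm38.p6) were rich in CpG. Their median was 24 CpG per promoter, equal to the 24 of the 5125 promoters of coding genes called in all 7 lists and above the 7 of all 32851 promoters. Asxl1 had the fewest of the 10 genes, 13, and Suz12 the most, 41. Rnf2 had 30 and Ring1 37, though Rnf2 ranked nearer the top than Ring1 in 5 of 7 lists by fold. A relation between CpG count and rank was not tested. The Asxl pair, which differed in rank and in summit position, also differed in sequence, as shown here with each CpG in capitals, Asxl1 at chr2:153345580-153345879 and Asxl2 at chr12:3426607-3426906, both on the plus strand:
Asxl1: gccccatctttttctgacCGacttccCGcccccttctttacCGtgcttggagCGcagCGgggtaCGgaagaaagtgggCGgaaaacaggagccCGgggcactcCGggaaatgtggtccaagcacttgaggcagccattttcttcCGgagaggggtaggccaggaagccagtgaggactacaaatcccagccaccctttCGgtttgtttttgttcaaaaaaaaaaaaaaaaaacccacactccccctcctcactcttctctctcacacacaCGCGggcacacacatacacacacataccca
Asxl2: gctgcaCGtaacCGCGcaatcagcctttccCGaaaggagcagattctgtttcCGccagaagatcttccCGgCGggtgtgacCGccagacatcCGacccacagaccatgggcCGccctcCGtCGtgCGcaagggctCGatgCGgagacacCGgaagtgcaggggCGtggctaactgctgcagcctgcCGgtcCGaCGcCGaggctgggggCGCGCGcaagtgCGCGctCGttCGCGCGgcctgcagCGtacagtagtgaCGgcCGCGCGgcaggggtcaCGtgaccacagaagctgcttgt
The Asxl1 promoter held 13 CpG and a run of 18 adenines, and the Asxl2 promoter held 36 CpG. The Ezh pair was closer, with 23 CpG in Ezh1 (chr11:101226414-101226713, minus strand) and 31 in Ezh2 (chr6:47594981-47595280, minus strand). It is shown because calls differed most between its members, with CpG in capitals for Ezh1 and the letters TTTGGCGC, an E2F-type motif, in capitals for Ezh2:
Ezh1: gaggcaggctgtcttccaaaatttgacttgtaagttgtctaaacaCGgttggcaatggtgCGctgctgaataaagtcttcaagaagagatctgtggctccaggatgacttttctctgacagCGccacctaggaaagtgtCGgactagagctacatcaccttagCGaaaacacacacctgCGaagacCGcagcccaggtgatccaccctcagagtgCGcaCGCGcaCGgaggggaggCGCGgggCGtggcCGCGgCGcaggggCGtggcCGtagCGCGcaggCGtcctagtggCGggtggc
Ezh2: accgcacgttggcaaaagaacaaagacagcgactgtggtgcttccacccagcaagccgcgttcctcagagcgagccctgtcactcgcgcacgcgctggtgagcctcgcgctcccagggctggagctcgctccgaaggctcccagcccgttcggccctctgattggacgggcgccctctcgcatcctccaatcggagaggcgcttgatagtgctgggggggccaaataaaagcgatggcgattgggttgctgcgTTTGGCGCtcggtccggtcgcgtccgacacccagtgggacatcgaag

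Motifs were looked for on both strands after the promoters had been read, so their counts are a description. TTTGGCGC was in Ezh2 alone among the 10 genes in 0.514% of all promoters and in 1.05% of those of coding genes called in all 7 lists. The YY1-type letters AAAATGGC, or their complement GCCATTTT, were in Asxl1, Bmi1 and Jarid2, in 1.54% of all promoters and in 2.44% of those called in all 7 lists. They are shown in capitals for Bmi1 (chr2:18676768-18677067, plus strand) and for the first start of Jarid2 (chr13:44730524-44730823, plus strand), the genes with the widest median peak and the top mean rank by fold:
Bmi1: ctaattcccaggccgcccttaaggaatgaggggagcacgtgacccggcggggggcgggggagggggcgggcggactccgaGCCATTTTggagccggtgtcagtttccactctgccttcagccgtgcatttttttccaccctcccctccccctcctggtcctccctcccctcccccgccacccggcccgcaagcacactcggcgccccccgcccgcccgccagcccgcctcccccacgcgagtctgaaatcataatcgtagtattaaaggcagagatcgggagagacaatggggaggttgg
Jarid2: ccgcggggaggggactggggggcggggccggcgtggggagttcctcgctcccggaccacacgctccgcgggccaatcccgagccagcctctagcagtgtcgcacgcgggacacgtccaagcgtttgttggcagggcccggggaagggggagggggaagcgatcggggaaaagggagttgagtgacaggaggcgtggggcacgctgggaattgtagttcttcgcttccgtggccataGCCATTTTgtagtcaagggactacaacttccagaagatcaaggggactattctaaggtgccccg
The GC box GGGCGG was in 7 of the 10 genes (35.7% of all promoters and 69.1% of those called in all 7 lists), CCAAT in 4 (37.4 and 36.2%), CACGTG in Asxl2 and Bmi1 (7.15 and 10.2%), the ETS-type CCGGAAGT in Asxl2 (3.89 and 8.70%) and TATAAA at a start of Jarid2 (13.6 and 5.03%), with the shares in the same order. TGACGTCA (1.79 and 3.00%) and TTTCGCGC (0.323 and 0.663%) were in none of the 10. A match is a run of letters and not evidence of binding.

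Among the other Polycomb genes and the H3K27 demethylase Kdm6a, 15 of the 27 with a start were called in all 7 lists (22.4% of protein-coding genes were), 11 in some and Phf19 in none. Those called in some were Pcgf3, Pcgf6, Scmh1, L3mbtl2 and Mbd6 (6 lists each), Rbbp7, Mtf2 and Hcfc1 (5 each), Cbx7 and Ogt (4 each) and Bcor (2, both HFD-LSK; two-sided Fisher's exact p = 0.143). Nearest the top by mean rank position were the PR-DUB partner Mbd5 (12.6%), the histone-binding subunit Rbbp4 (19.8%) and the PRC1 subunit Phc3 (23.8%), and farthest, with uncalled lists at 100%, were Phf19 (100%), Bcor (94.3%) and L3mbtl2 (81.6%). The mean over lists of the median rank position was 45.6 ± 9.46% for these 27 genes and 28.6 ± 20.4% for the 10 listed genes (SD over 7 lists). It was 30.3 ± 5.37% for coding genes called in all 7 lists and 58.0 ± 13.6% for coding genes called in any list. For the H3K4 methyltransferase complex genes it was 32.1 ± 5.03%, and for the H3K4 demethylase genes 43.8 ± 14.6%.

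Of the 15, Phc3 and Foxk2 had rank positions that did not overlap between diets, nearer the top in HFD-LSK (exact permutation p = 0.0286 and 0.0571), beside 3.34% of gene starts in that direction. By height Phc3 still did not overlap, whereas Foxk2 did, at 39.0, 40.1 and 56.3% in HFD-LSK and 55.9, 56.8, 28.2 and 64.3% in LFD-LSK. In width 3 of the 15 had larger HFD-LSK widths without overlap, Cbx6, Phc2 and Kdm6a (exact permutation p = 0.0286, 0.0571 and 0.0571), beside 6.58% of gene starts and the general excess of width in HFD-LSK. The Phc2 width sums peaks at separate starts, and its strongest peaks overlapped between diets (1520, 981 and 665 bp in HFD-LSK and up to 1440 bp in LFD-LSK). At Cbx6 the mean widths were 1453 bp in HFD-LSK and 940 bp in LFD-LSK. These values are from the two-sided test before adjustment. Of the H3K4 methyltransferase complex genes 5 of 8, and of the H3K4 demethylase genes 3 of 4, were called in all 7 lists, beside 7 of 10 Polycomb genes, and 0 of those 8 genes were separated between diets in rank position or width.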

How the data were processed

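H3K4me3 CUT&Tag was done in 3 HFD-LSK and 4 LFD-LSK samples; the sample titles write CUT&RUN, but the protocol in the labels and the study's methods describe CUT&Tag. Per the labels, the submitters' processing notes name Trim Galore, Bowtie2, Picard, MACS2, bedtools, HOMER, featureCounts and GRCm38, with no versions, and peaks were called per sample; the lists match GRCm38 gene starts. The deposited columns hold the fold enrichment at the summit, its −log10 p and q, and a score of 10 times −log10 p, rounded down. The study's methods instead name SEACR, with IgG as control, and GRCm39; the labels were followed, and they do not say whether IgG was set against these lists. Fold depends on each library's own background, so ranks within a list were compared. Peaks of equal fold shared their mean rank, as Eed and Bmi1 did in HFD-LSK replicate 3 (64.1% each). Read depth per library was not analysed here, and list length is given in its place. Gene starts came from RefSeq GRCm38.p6. Genes without an entry in that table were not analysed here. Summit height and local background were recovered from fold and p, with 1 solution for 98.0 to 100.0% of peaks per list. Tests were two-sided: exact permutation over 35 labelings, with Benjamini-Hochberg adjustment over 4437 gene starts, and Fisher's exact test. The code was tested on simulated data. The members and lists were chosen with earlier results of these data known. All 10 members were named. Other Polycomb genes, with Kdm6a, were named if not called in all 7 lists, if the diets did not overlap, or if among the 3 nearest or farthest by mean rank position. Alternatives changed the q threshold, list length, window, summit rule, ranking measure, width measure, libraries and replicate block. Python 3.11.15, numpy 2.4.6, pandas 2.3.3, scipy 1.17.1 and matplotlib 3.10.9 were used.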

Additional observations from a re-analysis of the deposited data

Results flagged for a closer look

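Within LFD-LSK, the Jarid2 width of replicate 4 (1219 bp) lay far below the other 3 libraries (1665, 1699 and 1740 bp), which were close together. LFD-LSK replicate 4 was also the shortest list, with 6921 peaks and a median peak width of 525 bp over the whole list, and the part of list length in the Jarid2 value was not tested. Chance sets about 1 in 20 such groups apart, and 14 groups of LFD-LSK values were examined.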

How the results depend on the processing

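Of 194 per-gene exact tests under the alternatives, 82 could pass 0.05 and 0 did (lowest p = 0.0857). The other 112 could not, with lowest possible p of 0.0667 without an HFD-LSK library, 0.1 without an LFD-LSK library and 0.25 with the replicate block, so only their values are used. The cause of the changes of sign was not tested. Differences are HFD-LSK minus LFD-LSK, in percentage points for ranks.

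By summit height the rank difference became −16.9 at Asxl2, −17.8 at Bmi1, −1.74 at Eed and −16.5 at Ezh2, with a median of −6.64 over the genes called in every list (−5.40 over all gene starts). By −log10 p it became 4.29 at Asxl1, 1.98 at Asxl2, −1.45 at Bmi1, −2.48 at Eed and −11.3 at Jarid2, with a median of −1.45 (−4.78 over all gene starts), and 1 gene (Ezh2, 9.59) did not overlap, farther from the top in HFD-LSK (1.37% of gene starts in that direction, 3.56% in the other). Among gene starts called in all 7 lists it became 2.51 at Asxl1, −0.620 at Asxl2 and 0.0545 at Jarid2. With −log10 q of at least 5, 4 genes were called in all lists and Bmi1 became −1.05. Of the widths of the 4 genes 0 were separated, beside 6.47% of gene starts wider in HFD-LSK. With equal list lengths, 2 genes were called in all lists and the median rank difference was −13.5 (1.88 over all gene starts). Jarid2 became 3.30 and PRC1 minus PRC2 in width was −132 bp. Of the widths of the 2 genes 0 were separated, beside 5.71% of gene starts wider in HFD-LSK. In both settings, Asxl2 was not called in every list and its widths were not compared. With 3 kb around the start, PRC1 minus PRC2 in width was 70.6 bp and Jarid2 became 1.46. With the mean over genes, PRC1 minus PRC2 was −6.58 in rank and −60.8 bp in width, and Asxl minus PRC2 was 150 bp in width; with peaks joined within 500 bp the latter was 12.2 bp. As a position within the list's widths (percent of the list no wider), the difference was −8.78 at Asxl1, −2.45 at Eed, −0.513 at Ezh2 and −3.03 at Jarid2. By this measure 0 genes were separated, beside 2.97% of gene starts wider in HFD-LSK and 1.69% narrower. With the strongest peak alone the width difference was 204 bp at Jarid2 and 236 bp at Asxl1.

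Leaving out each library in turn gave ranges of −11.2 to 13.0 for the median rank difference, −15.3 to 10.4 for Asxl1, −22.5 to 24.3 for Asxl2, −14.1 to 13.0 for Bmi1, −7.07 to 22.1 for Eed, 2.78 to 32.7 for Ezh2, −34.3 to −11.6 for Rnf2, −3.21 to 3.63 for Jarid2, 1.99 to 8.57 for PRC1 minus PRC2 and 11.5 to 20.1 for Asxl minus PRC2. In width they were −258 to 841 bp for Asxl1, −33.2 to 1445 bp for Jarid2, 8 to 408 bp for Ezh2, 0 to 368 bp for Eed, 204 to 632 bp for Bmi1, 93 to 435 bp for Rnf2, 364 to 634 bp for Asxl2 and −94.6 to 29.8 bp for Asxl minus PRC2. Genes separated in rank numbered 0 to 1 (Rnf2 without HFD-LSK replicate 1 or LFD-LSK replicate 4, Asxl2 without HFD-LSK replicate 3), each nearer the top in HFD-LSK, beside 11.8, 5.23 and 9.9% of gene starts. In width they numbered 1 to 2 (Asxl2 in each case, with Rnf2 added without LFD-LSK replicate 2). The shares of gene starts separated wider in HFD-LSK were 19.9, 6.65 and 16.5% without HFD-LSK replicates 1 to 3. They were 7.57, 21.6, 11.8 and 6.89% without LFD-LSK replicates 1 to 4. Without LFD-LSK replicate 4, 9 of the 10 genes and 29.8% of protein-coding genes were called in every list.

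With the replicate block (numbers 1, 2 and 3), the rank difference at Jarid2 was 3.63 and the median over genes was also 3.63 in rank and 213 bp in width; 0 differences passed with or without it, and the exact sign-flip test cannot go below 0.25. Deviations of same-numbered libraries correlated at 0.184, 0.0124 and 0.0368 in rank and 0.145, 0.363 and −0.0832 in width across genes. Such correlations across genes cannot decide whether same-numbered libraries are paired. The labels do not say that they are, so the main tests used no pairing. The study's own peak comparison allowed for batch and for paired samples, and a cohort was added for its LSK diet comparison. The labels do not state which of these libraries share a batch or cohort. Read depth behind the peaks was not analysed here, and a missing peak in a short list is not evidence of a missing mark.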
